A study of Homo sapiens with 6 samples.

Results

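Ribosome profiling counted the footprints of translating ribosomes in 6 libraries of HEK293T-REx cells, an established human embryonic kidney cell line, and 389 transcript models are described here whose footprints were much lower under RocA in naive cells and were less reduced in aglaiacized cells. A transcript model is a set of transcript rows with the same counts in all 6 libraries. N is the log2 ratio of RocA to the mean of the DMSO libraries in naive cells, and A is the same ratio in aglaiacized cells. Both were computed from CPM, counts scaled to the same library total, with 1 CPM added. Both were centred on the median of the 20211 models whose mean count reached 100. The members have N at or below -1.5 and A above -0.75. They are 389 of the 2019 models at or below the N limit (19.3%), of the 20211 models (1.92%) and of 38543 models in all. The members were chosen by N and A, which use all 6 libraries, so both are given as descriptions without a test.

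The naive DMSO group and the aglaiacized DMSO group held 2 libraries each, from cells given the control solvent DMSO. The naive RocA group and the aglaiacized RocA group held 1 library each, from cells given RocA. All 6 libraries came from HEK293T-REx cells, and no dose, time or number of clones was used here. The labels do not explain the word aglaiacized. It is taken here to mean cells with an eIF4A1 that carries residues of the plant Aglaia, a reading that was not checked. Nothing in the labels says that replicates came from separate cultures, so their spread may be technical.

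Rocaglamide A (RocA) is a natural product of Aglaia plants. Its target eIF4A is the RNA helicase that opens the 5′ end of an mRNA so that a ribosome can be loaded and scan to the start codon. RocA clamps eIF4A onto runs of purines in the RNA, which blocks scanning on some mRNAs much more than on others, and Aglaia protects itself with changes in its own eIF4A. Footprints on a coding region follow both the amount of an mRNA and how often it is translated. No mRNA amounts were used here, so these 2 quantities cannot be told apart in any value below.

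The files give transcript identifiers without gene names. A search of the 82960 identifiers in the gene table of GRCh38.p14 matched 1 of them, which was no member, so the members carry no gene names, gene functions or sequences here. The cell line could not be checked by marker genes, nor the aglaiacized line by its eIF4A rows. Identifiers are given for 4 members, and the others are described by rank or length.

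Over the 389 members, the median N was -1.73, with a lowest value of -2.95, and the median A was -0.58, with a highest value of 0.52. The members took 1.51% ± 0.0045 (SD, n = 2) of all footprints in naive DMSO and 0.259% in naive RocA (95% Wilson interval 0.255% to 0.262%, counting error only). They took 1.27% and 1.18% in the aglaiacized DMSO libraries and 0.689% in aglaiacized RocA (0.684% to 0.695%). The joint share under RocA was thus 0.172 times the DMSO mean in naive and 0.562 times in aglaiacized cells, before any centring. For the 1630 other models at or below the N limit, those with A at or below -0.75, the same ratios were 0.141 and 0.335. The library totals over all models ran from 8219273 to 28428267 counts, and the smallest were those of the RocA libraries.

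**Figure D1:**
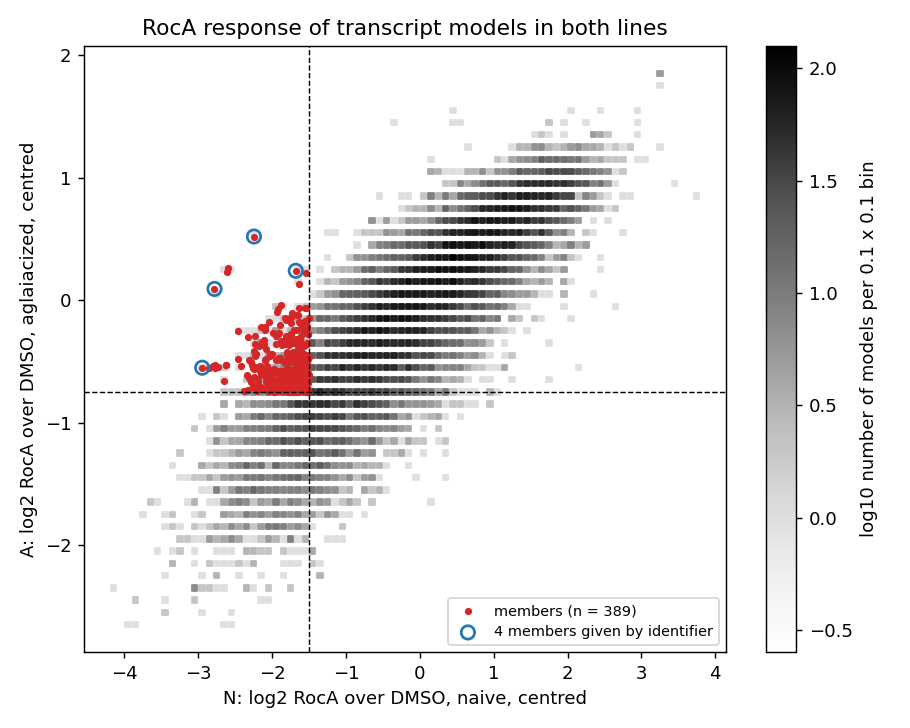
Centred log2 ratio of RocA to DMSO in naive cells (horizontal axis, N) against aglaiacized cells (vertical axis, A). Grey squares show the number of all 20211 models per bin on a log10 scale, red points are the 389 members, blue rings mark the 4 members given by identifier, and dashed lines mark the limits of -1.5 and -0.75; the members fill the upper edge of one continuous cloud rather than a separate group.

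The members were not untouched by RocA in aglaiacized cells, although their working name calls them spared. After centring, 375 of the 389 lay below both aglaiacized DMSO libraries in aglaiacized RocA, 6 lay above both and 8 lay between. Over all 20211 models, 46.1% lay below both. A was at or below -0.5 in 250 members, against 25.9% of all models, between -0.5 and -0.25 in 103, between -0.25 and 0 in 29, and above 0 in 7, against 50% of all models. The rule used these values, so the counts describe the choice. Without centring, 2 members had an A above 0, against 36.7% of all models. Nearly all members thus had a lower relative level in aglaiacized RocA than in aglaiacized DMSO, by less than in naive cells.

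In naive cells all 389 members lay below both DMSO libraries, which the rule fixes. Of them, 301 had an N between -2 and -1.5, 75 lay between -2.5 and -2, and 13 at or below -2.5. The share of members among the models at or below the N limit was 25.2% in the first of these bands, 13.4% in the next and 4.91% in the last. The median A of the models in these bands was -0.99, -1.28 and -1.60, and the fixed A limit thus kept fewer of the models with the deepest naive loss. Within the members, N and A showed hardly any rank relation (Spearman rho -0.02 over 389 models). This is a description, since models share libraries and may share reads.

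Neither limit fell into a gap of the data. The 2 members just inside the N limit had N of -1.5020 and -1.5023, and the nearest models outside had -1.4943 and -1.4941. The 2 members just inside the A limit had A of -0.7496 and -0.7493, and the nearest models outside had -0.7519 and -0.7522. Among the models that meet the A limit, 200 lay within 0.1 of the N limit, 83 of them inside. Among those that meet the N limit, 270 lay within 0.1 of the A limit, 117 of them inside. Along A, the 2019 models numbered 398 from -1 to -0.75, 250 from -0.75 to -0.5 and 103 from -0.5 to -0.25.

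The levels behind these ratios were moderate. The median member had 23.5 and 23.6 CPM in the naive DMSO libraries and 3.65 CPM in naive RocA. It had 19.9 and 18.6 CPM in the aglaiacized DMSO libraries and 10.9 CPM in aglaiacized RocA. The naive RocA library stands apart from the other 5 in these medians. In counts, the median member held 433 and 442 in naive DMSO and only 30 in naive RocA, where the exact Poisson interval of 20.2 to 42.8 counts spans -0.57 to 0.51 on the log2 scale. In aglaiacized RocA the median member held 91 counts, with an interval of 73.3 to 112 counts, or -0.31 to 0.30 on the log2 scale. Fewer than 10 counts were present for 48 members in naive RocA and for 1 member in aglaiacized RocA. Between DMSO replicates, the log2 ratio of the members had an SD of 0.127 in naive and 0.168 in aglaiacized cells, against 0.142 and 0.180 over all 20211 models.

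**Figure D2:**
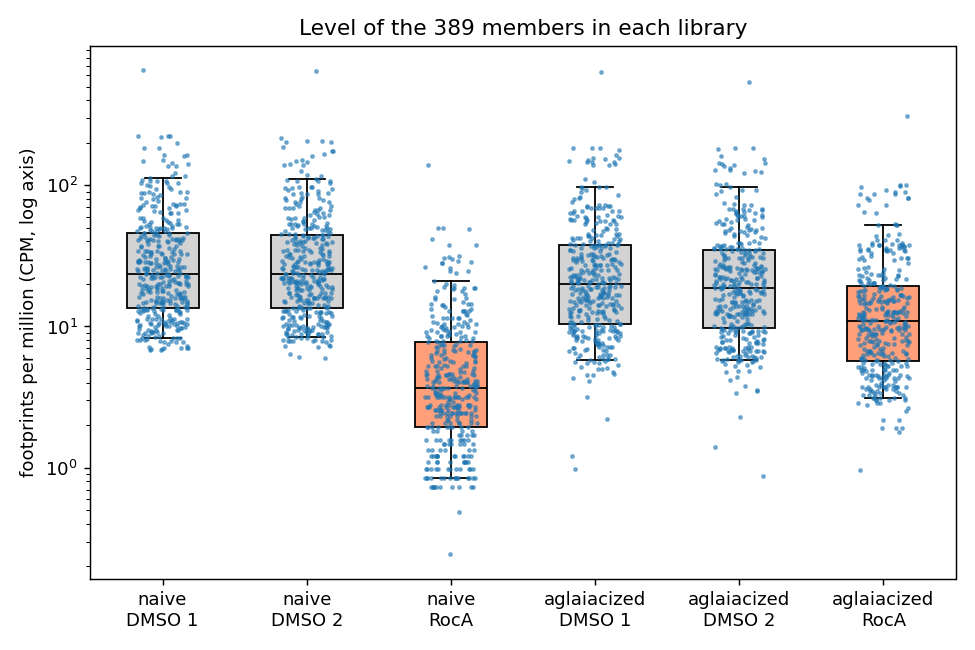
CPM of each of the 389 members (points) in each library on a log axis; boxes span the 25th to 75th percentile with the median as a line, whiskers run from the 5th to the 95th percentile, and RocA libraries are in orange. The median is lowest in naive RocA at 3.65 CPM, and aglaiacized RocA at 10.9 CPM lies below the medians of its DMSO libraries.

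Many members are neighbouring rows of the files with similar counts, as isoforms of 1 gene are when they share reads. Members at most 5 rows apart were joined into runs, which gave 190 runs. Of these, 98 held 1 member, 42 held 2 members, 42 held 3 to 5 and 8 held 6 or more, with up to 11 members and 60 in all. With gaps of at most 1 row or at most 10 rows the runs numbered 233 and 186. A run may be 1 gene or a few neighbouring genes, so 190 is closer to a number of loci than 389 is. In the 50 runs of 3 or more members, the median range within a run was 0.16 for N and 0.09 for A. With only the deepest member of each run, the median N was -1.68 and the median A was -0.60.

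The runs were rarely made of members alone. Within 5 rows of the members lay 615 other models that reached a mean count of 100, and 19 runs had no such neighbour. These neighbours had a median N of -0.84 and a median A of -0.39. Of them, 102 met the N limit and thus missed the A limit, 110 missed the N limit by at most 0.25, and 453 met the A limit. Neighbouring rows thus often lay on both sides of the rule.

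The member with the lowest N was uc010ssl.2, with a listed length of 1636. It had 41.0 and 38.2 CPM in naive DMSO and 2.55 CPM in naive RocA (21 counts, exact Poisson interval 1.58 to 3.91 CPM). In the aglaiacized line it had 29.4 and 24.98 CPM in DMSO and 15.3 CPM in RocA (127 counts, interval 12.7 to 18.2 CPM). The naive RocA value lies far below the other 5, and no DMSO library overlaps a RocA library in either line. The CPM ratio of DMSO to RocA was 15.5 in naive and 1.78 in aglaiacized cells. It belongs to a run of 7 members with listed lengths from 577 to 1708, N from -2.95 to -2.73 and A from -0.55 to -0.53. This run holds the lowest N of the set, and 1 member of another run, with N of -2.78, falls within the same range. The members of the run of uc010ssl.2 lie close to each other in N and A, and whether they share reads was not tested.

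The next lowest N in another run was that of uc004eps.3, with a listed length of 666. It had 50.002 and 47.5 CPM in naive DMSO and 3.89 CPM in naive RocA (32 counts, interval 2.66 to 5.50 CPM). In the aglaiacized line it had only 2.20 and 2.29 CPM in DMSO and 1.92 CPM in RocA (16 counts, interval 1.10 to 3.12 CPM). The 2 lines thus differed without RocA: naive DMSO was 21.7 times aglaiacized DMSO. With RocA the naive library was still above the aglaiacized one. In aglaiacized cells the CPM ratio of DMSO to RocA was 1.17, and A was 0.09 after centring. At this level the added 1 CPM is of the size of the signal, and it shrinks the ratio before centring.

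This run held 4 members with listed lengths from 282 to 1075, all with an A above 0. Naive DMSO held 426 to 1406 counts in replicate 1 and 396 to 1345 in replicate 2. Aglaiacized DMSO held 21 to 68 and 25 to 96, and aglaiacized RocA held 8 to 27. In it, uc004ept.1 had the highest A of all members, 0.52. It had 34.0 and 31.0 CPM in naive DMSO and 3.77 CPM in naive RocA. In the aglaiacized line it had 1.22 and 1.41 CPM in DMSO and 1.804 CPM in RocA, and the RocA value rests on 15 counts (interval 1.01 to 2.97 CPM) that cover both DMSO values. Without this run the median N of the other 385 members was -1.73 and the median A was -0.59.

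The 3 other members with an A above 0 lay in 2 runs. The highest of them, uc001wud.3, is the only member of its run, with a listed length of 433. It had 10.1 CPM in both naive DMSO libraries and 1.34 CPM in naive RocA (11 counts, interval 0.668 to 2.39 CPM). In aglaiacized cells it had 4.64 and 3.55 CPM in DMSO and 4.09 CPM in RocA (34 counts), so the RocA value lay between the DMSO values. The sign of its A turned negative, to -0.0023 without centring and to -0.023 with all libraries thinned to 1 depth. The remaining pair, of 1 run and with listed lengths of 567 and 452, had 73 and 53 counts in aglaiacized RocA and 12 and 8 counts in naive RocA. Their mean DMSO levels were close in both lines, with naive DMSO 1.08 and 1.15 times aglaiacized DMSO. The naive DMSO replicates of this pair differed, with 10.9 and 8.33 CPM for length 567 and 9.75 and 6.35 CPM for length 452. Against naive DMSO replicate 2 alone, N was -1.36 and -1.34, which misses the limit of -1.5.

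The deepest member stood apart from the rest in level, with a listed length of 540. It had 653 and 643 CPM in naive DMSO and 138 CPM in naive RocA (interval 130 to 147 CPM). In aglaiacized cells it had 636 and 538 CPM in DMSO and 310 CPM in RocA (interval 298 to 322 CPM), with N of -1.66 and A of -0.68. Counting error is small here, and the difference between the aglaiacized DMSO replicates is the larger uncertainty: A was -0.79 against replicate 1 and -0.56 against replicate 2. The next 2 by depth, with listed lengths of 319 and 317, are rows of 1 run with N of -1.53 for both and A of -0.62 and -0.61.

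The shortest members had listed lengths of 74 and 87, with N of -1.83 and -1.75 and A of -0.66 and -0.32, resting on 8 and 10 counts in naive RocA. The longest members had listed lengths of 2903 and 2601, with N of -2.31 and -2.10 and A of -0.49 and -0.49. The longest had 113 and 111 CPM in naive DMSO, 14.4 CPM in naive RocA, 110 and 103 CPM in aglaiacized DMSO and 64.0 CPM in aglaiacized RocA. Its naive DMSO mean was 1.05 times the aglaiacized one, while its RocA level was 4.46 times higher in aglaiacized cells.

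Listed length, which the rule did not use, was similar in members and in the other models at or below the N limit. The median was 558 in members, 545 in the 1630 other models at or below the N limit and 445 over all 20211 models. The unit of this length is not stated, and it is of the size of protein lengths. When all models were divided into 5 groups of about equal size by length, models at or below the N limit made up 6.29% of the shortest group and 13.9% of the longest. The share of members among them showed no such order. From the shortest to the longest group it was 20.4%, 17.7%, 18.7%, 22.5% and 17.4%. The 95% Wilson intervals ran from 14.1% at the lowest to 26.5% at the highest bound. These intervals count models that may share reads as separate. Footprint density was close as well: the median in naive DMSO was 4.40 CPM per 100 length units in members, 4.06 in the 1630 other models and 4.27 over all models.

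The share of members among models at or below the N limit had no steady order with depth. In 5 groups of mean count it was 23.2% in the shallowest (100 to 154 counts), then 14.4%, 19.96% and 21.2%, and 18.1% in the deepest (at least 780 counts). The median A of members was -0.49 in the shallowest group, where counting error is largest, and -0.59 in the deepest. The part of depth in these values was not tested.

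The DMSO libraries of the 2 lines also entered the rule: a high naive DMSO value lowers N and a low aglaiacized DMSO value raises A, so the following calls are partly fixed by the choice of members. Of the 389, 183 (47.0%) were lower in aglaiacized than in naive DMSO and 17 (4.37%) were higher by edgeR's quasi-likelihood test (Benjamini-Hochberg adjusted p under 0.05, over 31237 models whose mean count reached 20). Over all tested models, 16.6% were lower and 19% were higher. Of the 1630 other models at or below the N limit, 428 (26.3%) were lower and 160 (9.82%) were higher. The size was mostly small: the median centred log2 difference D, aglaiacized over naive, was -0.25 in members, against -0.12 in the 1630 other models. A called difference of at least 2-fold was found in 16 members (4.11%), each of them lower in aglaiacized cells. The 4 members of the run of uc004eps.3 are among the 16. Over all 20211 models, 0.851% were called lower and 0.401% higher by at least 2-fold. In the 1630 other models at or below the N limit, these shares were 0.552% and 0.491%. In CPM, both aglaiacized DMSO libraries lay below both naive ones in 291 members (74.8%), against 39.7% of the 20211 models. They lay above both in 36 members (9.25%), against 32.8%. For the 1630 other models at or below the N limit, the shares were 54.8% below and 16.6% above.

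The choice was also made with 1 DMSO replicate of each line, and the lines were compared in the other replicate. Both choices used the same RocA libraries, replicates may be technical, and the sets differ from the 389 members. The values are thus a description and no independent check. The 365 models chosen with replicate 1, 310 of them members, had a median D of -0.29 in replicate 2, where 284 (77.8%) were below 0. The 450 models chosen with replicate 2, 342 of them members, had a median D of -0.18 in replicate 1, where 358 (79.6%) were below 0. Centring puts 50% of all models below 0. For the models at or below the N limit with A at or below -0.75, chosen the same way, the medians in the other replicate were -0.14 and -0.08. Of these models, 68.2% and 64.3% were below 0 there.

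Leaving out naive DMSO replicate 1 or 2 gave a median fitted log2 difference of -0.25 and -0.23 in members, against -0.24 in the main fit. Over all models this median was 0.01 in both fits. The spread then came from the aglaiacized pair alone, and fewer models were called in both directions, among members and over all models. Leaving out aglaiacized DMSO replicate 1 or 2 gave a median of -0.31 and -0.20 in members, and -0.003 over all models in both fits. The size in members thus depended more on the aglaiacized than on the naive libraries. DESeq2 called 81 of 367 members lower and 3 higher. It called 6.62% of all models lower and 11.01% higher.

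**Figure D3:**
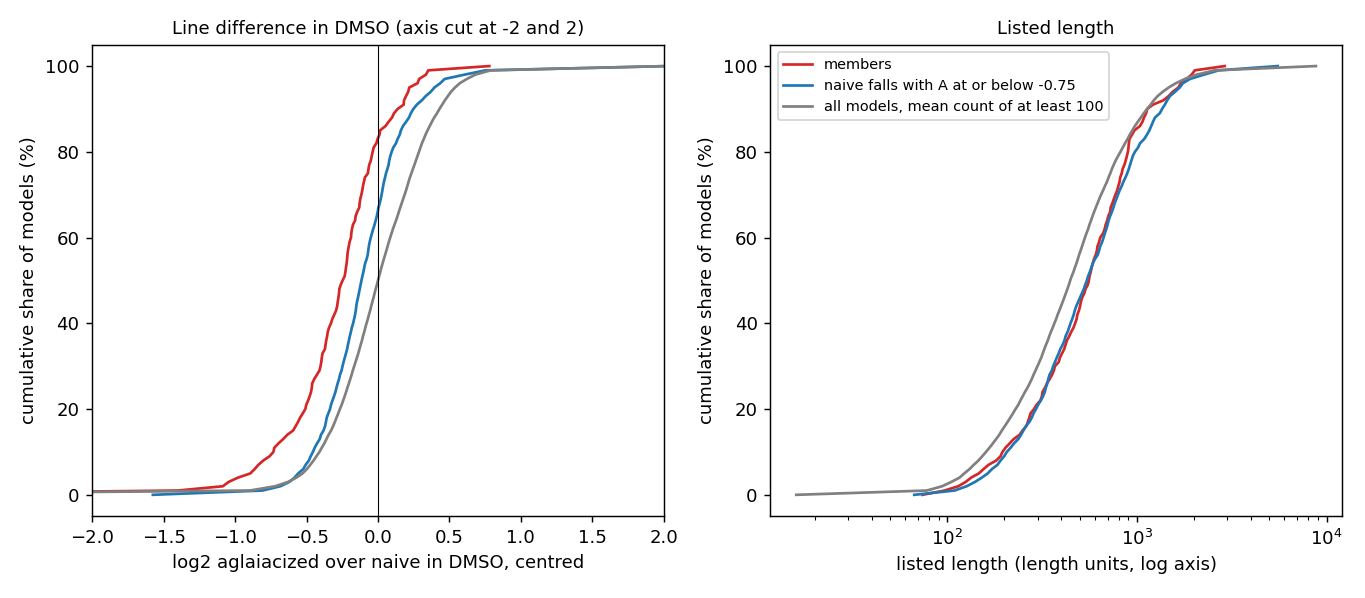
Cumulative share of models (vertical axis, percent) by centred log2 ratio of the lines in DMSO (left) and by listed length on a log axis (right), for the 389 members (red), the 1630 models at or below the N limit with A at or below -0.75 (blue) and all 20211 models (grey). The red curve lies left of the others in the left panel, with a median of -0.25, and runs along the blue one in the right panel, with medians of 558 and 545.

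For uc010ssl.2, the fitted log2 ratio of aglaiacized to naive DMSO was -0.48 (SE 0.11). It was -4.37 for uc004eps.3 (SE 0.15), -4.55 for uc004ept.1 (SE 0.17) and -1.25 for uc001wud.3 (SE 0.16). All 4 were called lower under every edgeR setting that kept 2 DMSO libraries in each line. DESeq2 called uc010ssl.2, uc004eps.3 and uc004ept.1 lower and gave no adjusted p for uc001wud.3. Outside the run of uc004eps.3, the lowest D of any member was -1.11, so that this run stands far from the other 385 members. At the other end, the member with the highest D, of listed length 632, had 103 and 81.8 CPM in naive DMSO and 151 and 160 CPM in aglaiacized DMSO. With RocA it had 19.8 CPM in naive and 89.5 CPM in aglaiacized cells. It was thus among the 17 members that were higher in aglaiacized DMSO, and the lines did not overlap in DMSO.

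The distance between the responses, A minus N, had a median of 1.24 and ranged from 0.76 to 2.87, and the limits of the rule keep it above 0.75. It was at least 1 in 311 members, against 4.78% of all models and 22.9% of the 1630 other models at or below the N limit. It is the sum of 2 parts: the line difference under RocA, R, and the negative of D, apart from the centring. The median R was 1.01, on the centred log2 scale. R was at least 1 in 205 members (52.7%) and in 347 (21.3%) of the 1630 other models at or below the N limit. Over all models this share was 4.08%. R was above 0 in 383 members (98.5%) and in 1535 (94.2%) of the 1630 other models at or below the N limit. It was at most -1 in 2 members, against 4.19% of all models. In 355 members (91.3%) the RocA part was larger than the DMSO part, as in 1344 (82.5%) of the 1630 other models at or below the N limit and 51.4% of all models. The other 34 members include the 4 members of the run of uc004eps.3, in which R ran from -1.21 to -0.64. R was used by the rule through N and A and has 1 library on each side, so it is given without a test.

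**Figure D4:**
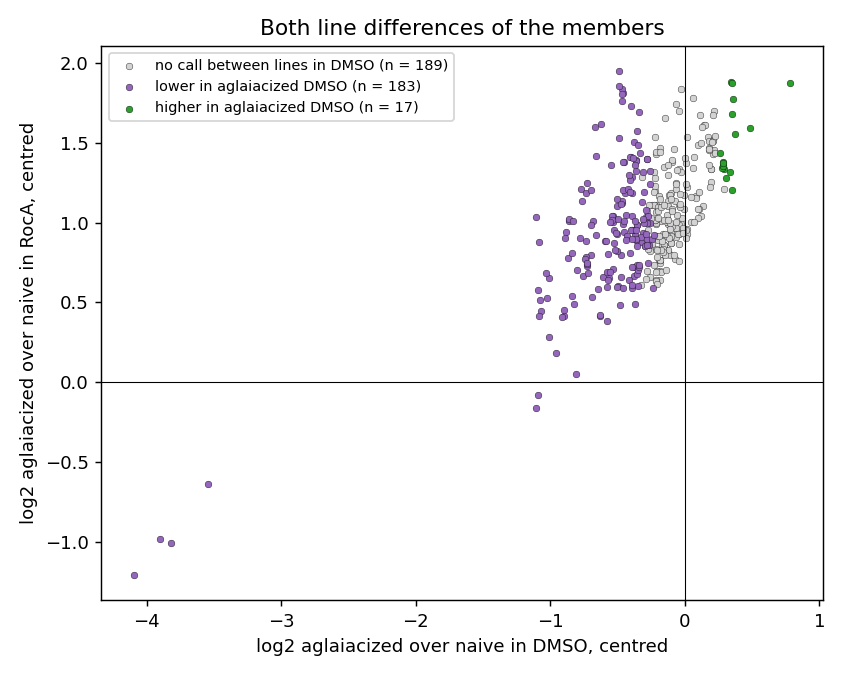
Centred log2 ratio of aglaiacized to naive cells in DMSO (horizontal axis) and in RocA (vertical axis) for each member. Purple points are the 183 members called lower and green points the 17 called higher in aglaiacized DMSO by edgeR; 4 members of 1 run sit at the lower left with D from -4.09 to -3.54, and 383 members lie above 0 on the vertical axis.

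The 8 runs of 6 or more members lay on both sides of 0 in D. The largest held 11 members with listed lengths from 419 to 2054, N from -2.62 to -1.52, A from -0.61 to -0.50 and D from -0.40 to -0.34. A run of 8 members, with listed lengths from 588 to 914, had D from 0.18 to 0.29 and R from 1.34 to 1.51: it was higher in aglaiacized cells in DMSO and by more under RocA. A run of 6 members, with listed lengths from 318 to 658, had D from -0.89 to -0.70 and the smallest relative losses among these runs, with A from -0.36 to -0.07. Its aglaiacized DMSO replicates differed, with 96 to 204 counts in replicate 1 and 192 to 372 in the deeper replicate 2. A run of 7 members, with listed lengths from 416 to 727, had D from -0.07 to -0.03, so that its distance lay in the RocA libraries alone.

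Membership depended on which DMSO libraries were used. Of the 389 members, 268 (68.9%) met the rule in each of the 4 choices that left out 1 DMSO library. Without aglaiacized DMSO replicate 1, 449 models met the rule, 365 of them members. Without aglaiacized DMSO replicate 2, 347 met it, 327 of them members. Without naive DMSO replicate 1 or 2, 391 and 404 models met it. No choice could leave out a RocA library, since each line has 1, so that the spread between RocA libraries is not known for any member.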

How the data were processed

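The members, lists and tests were chosen with earlier results of these data known. The authors deposited raw counts, 1 per transcript row, in files without a header, which also list a length for most rows in a unit that is not stated. CASAVA 1.8, Bowtie2 2.1.0, TopHat2 2.0.9 and the build hg19 are named in the submitters' processing notes. How footprints were assigned and counted is not given in the sources used here. RNase I digestion made the footprints, per the labels' protocols.

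Of 82960 rows, 19269 without a length held 0 counts and were left out. The remaining 50582 rows above 0 counts were merged into 38543 models. CPM used the total of all models. The lines in DMSO were compared by edgeR's quasi-likelihood test (version 4.0.16, R 4.3.3, TMM factors, two-sided, 1 model of 4 groups and 2 residual degrees of freedom), with DESeq2 1.42.0 as an alternative. The script was tested on simulated data. Identifiers were printed for the lowest N and the highest A, 2 each and 1 per run. Other described members are the deepest, the shortest and longest, those with extreme D and those next to the limits; runs were described after their values were seen.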

Additional observations from a re-analysis of the deposited data

Results flagged for a closer look

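After centring, 6 members (1.54%) lay below both naive DMSO libraries in naive RocA and above both aglaiacized DMSO libraries in aglaiacized RocA, against 5.03% of all 20211 models. In uncentred CPM only 1 member lay above both aglaiacized DMSO libraries, against 6611 of all 20211 models. Of the 6, 4 are the run of uc004eps.3 and uc004ept.1, with 8 to 27 counts in aglaiacized RocA. The others are uc001wud.3, with 34 counts there, and the member of listed length 567, with 73. The difference between the lines was not tested for them, because N and A chose the members and each line has 1 RocA library.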

How the results depend on the processing

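The run gaps and the medians without 1 run were chosen after seeing the data. The number of members was 160 with a pseudocount of 5 CPM, 862 with no centring, 258 with a limit of 200 on the mean count and 190 with 1 member per run, and it ran from 347 to 449 when a DMSO library was left out. Only 118, 144 and 228 of the first 3 sets, and 168 of the 267 after thinning, were among the 389 members. Without centring uc010ssl.2 left the set (A of -0.79), and uc001wud.3 left it with the pseudocount of 5 CPM, with the limit of 200 and after thinning. The median listed length was 700.5 with a pseudocount of 5 CPM, 601.5 with no centring and 632 after thinning, and it ran from 527 to 565 without single libraries. The members' mean share of naive DMSO footprints, 1.51%, became 1.57% and 1.13% with pseudocounts of 0.5 and 5 CPM, 3.39% with no centring, 1.63% and 1.27% with limits of 50 and 200 on the mean count, 1.58% with no merging, 1.34% after thinning and 0.755% with 1 member per run. It ran from 1.27% to 1.93% without single libraries. These changes follow from another set of members.

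Members lower in aglaiacized DMSO numbered 81 with DESeq2, 81 of 190 with 1 member per run, and 101 to 223 without single libraries. Members higher there numbered 9 with total counts and no scaling factor, 3 with DESeq2, 10 after thinning, 11 with 1 member per run, and 2 to 25 without single libraries. The cause was not tested. With the replicate block on the 4 DMSO libraries, 185 members were lower and 15 higher, against 188 and 16 without the block; the shared numbers showed no pairing of DMSO libraries (r = -0.05 between their deviations over 20211 models). A of uc004eps.3 was -0.15 with no centring and -0.15 after thinning, and A of uc001wud.3 was -0.0023 and -0.023. Depth limits N: the median member had 30 counts in naive RocA.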
